A study of Mus musculus with 14 samples.

Results

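The 10 genes described here are Nfe2l2, which encodes the transcription factor NRF2, Keap1, which encodes its repressor, and 8 antioxidant genes known as NRF2 targets: Nqo1, Hmox1, Gclc, Gclm, Txnrd1, Srxn1, Gsr and Prdx1. They were taken by symbol from the 55291 rows of the deposited count table. All 10 passed the filter on low counts, with 17933 genes tested in all. RNA came from lung tumor nodules, snap-frozen, of mice of the C57BL/6 strain. All groups share the genotype HER2 Exon20YVMA, an insertion in the kinase domain of the receptor HER2. The groups were nodules with acquired resistance to mobocertinib given alone (resistant, n = 3), nodules given T-DM1 and mobocertinib together (combination, n = 3), T-DM1 (n = 3), mobocertinib, also called TAK-788 (n = 3), and vehicle (n = 2). Mobocertinib blocks the kinase of EGFR and HER2 mutants, and T-DM1 (trastuzumab emtansine) links a microtubule poison to a HER2 antibody. The treatment is described as long-term; dose, duration, age and the promoter that drives the allele were not given in the sources used here.

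NRF2 is held in the cytoplasm by KEAP1, which presents it to the CUL3-RBX1 ubiquitin ligase for degradation. When electrophiles or oxidants modify KEAP1, NRF2 accumulates, enters the nucleus, pairs with a small MAF protein and binds antioxidant response elements near its targets. The pathway supplies glutathione, thioredoxin and NADPH to epithelial cells and macrophages of the lung, and is mutated or active in many lung cancers. Since NRF2 is controlled largely at the protein level, the level of Nfe2l2 RNA is not a measure of its activity.

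Library totals were 19.3 to 31.3 M counts. The pair from vehicle nodules differed from the other 12. Genes with transcripts under 1 kb took 33.7% and 39.6% of vehicle counts, against 9.03% to 15.7% in the other libraries, and those over 5 kb took 4.81% and 3.57%, against 10.5% to 17.2%. Markers of other lung cells moved with the groups as well. The summed level of 10 macrophage markers was 1124 to 14511 CPM (counts scaled to library size with TMM factors) in the 12 other libraries and 23909 and 24064 CPM in vehicle, 10 alveolar macrophage markers summed to 453 to 3610 CPM and to 10059 and 9141 CPM, and 10 alveolar type 2 markers to 10157 to 81185 CPM and to 144120 and 213130 CPM. Endothelial markers went the other way, with sums of 519.7 to 1112 CPM in the 12 other libraries and 206 and 247 CPM in vehicle, as did fibroblast markers, with 378 to 3588 CPM and 299.6 and 293 CPM. The macrophage sum is mostly Lyz2, at a mean of 7900 CPM, with C1qa next at 145 CPM. The median log2 fold change of that list against vehicle was 0.28, -0.12, -0.11 and 0.20 in resistant, combination, T-DM1 and mobocertinib nodules. The median of all genes was 0.18, 0.082, 0.18 and 0.091 in the same order. The macrophage list's median was thus above that of all genes in resistant and mobocertinib nodules and under it in combination and T-DM1 nodules. In the alveolar type 2 list the marker of highest mean level was Sftpc, at 35456 CPM, with Sftpb next at 7305 CPM. The 7 epithelial markers, led by Krt19 and Krt18, were detected in every library and summed to 1682 to 6022 CPM. The part of cell mixture in the results was not tested, and in bulk nodules fewer cells of a type and less RNA per cell cannot be told apart. The labels do not say whether libraries are from different mice, so p-values measure the spread between these samples.

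Against vehicle, Prdx1, a peroxiredoxin that reduces peroxides, was lower in all 4 other groups by CPM, although its levels in TPM, the deposited unit corrected for transcript length, overlapped, and Gclc, the catalytic subunit of the first enzyme of glutathione synthesis, was higher in resistant nodules. The other 8 members passed the threshold in none of the 4 comparisons. Genes were called at a Benjamini-Hochberg adjusted p below 0.05 in edgeR's quasi-likelihood test over all genes. In resistant nodules 1 of 10 members was called higher and 1 lower, where 22% of all genes tested were called higher and 19% lower (41% either way). In the combination group 0 were called higher and 1 lower, beside 17.6% and 17.4% of all genes (35% either way). In T-DM1 nodules 0 were called higher and 1 lower, beside 16.7% and 14.9% (31.7% either way). In mobocertinib nodules 0 were called higher and 1 lower, beside 16.8% and 16.1% (32.9% either way). These shares of members lay under those of all genes, but with 10 members the gap rests on few genes and was not tested. The median log2 fold change of the members was 0.0025, 0.19, 0.61 and 0.032 in resistant, combination, T-DM1 and mobocertinib nodules, where that of all genes was 0.18, 0.082, 0.18 and 0.091. Counting members whose libraries did not overlap vehicle, 1 was higher and 2 lower in resistant nodules (28.8% and 25.6% of all genes), 1 and 2 in combination nodules (33.3% and 29.9%), 2 and 1 in T-DM1 nodules (32.2% and 26%) and 1 and 3 in mobocertinib nodules (31.1% and 28.3%).

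Between the drug and resistant groups, 0 of 10 members were called by edgeR in each of the 6 comparisons. In simulated counts this test called 8% of 2-fold changes in T-DM1 against mobocertinib, so differences of that size would mostly be missed. All genes gave few calls too: 0.00558% in resistant against mobocertinib, 0% in resistant against T-DM1, 0.00558% in resistant against combination, 0% in combination against mobocertinib, 0% in combination against T-DM1 and 0.0279% in T-DM1 against mobocertinib, of which 0.0223% were higher. At an unadjusted p below 0.05 there were 3 members in T-DM1 against mobocertinib (Nfe2l2, Gsr and Nqo1), 3 in resistant against T-DM1 (Nfe2l2, Gsr and Srxn1), 1 in resistant against mobocertinib (Hmox1), 1 in combination against T-DM1 (Nfe2l2) and 0 in the other two. All genes passed that level at 9.56% in T-DM1 against mobocertinib, 13.1% in resistant against T-DM1, 7.77% in resistant against mobocertinib, 5.1% in combination against T-DM1, 8.3% in resistant against combination and 1.46% in combination against mobocertinib. DESeq2 called 1 of them, Nfe2l2 in T-DM1 against mobocertinib, where it called 2.26% of all genes, and limma-voom called 0. Members without overlap were 0 higher and 1 lower in resistant against mobocertinib (4.33% and 5.75% of all genes), 0 and 3 in resistant against T-DM1 (8.13% and 8.14%), 0 and 1 in resistant against combination (6.01% and 6.52%), 1 and 0 in combination against mobocertinib (3.49% and 3.21%), 1 and 2 in combination against T-DM1 (8.41% and 7.81%) and 2 and 0 in T-DM1 against mobocertinib (9.64% and 9.32%).

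**Figure D1:**
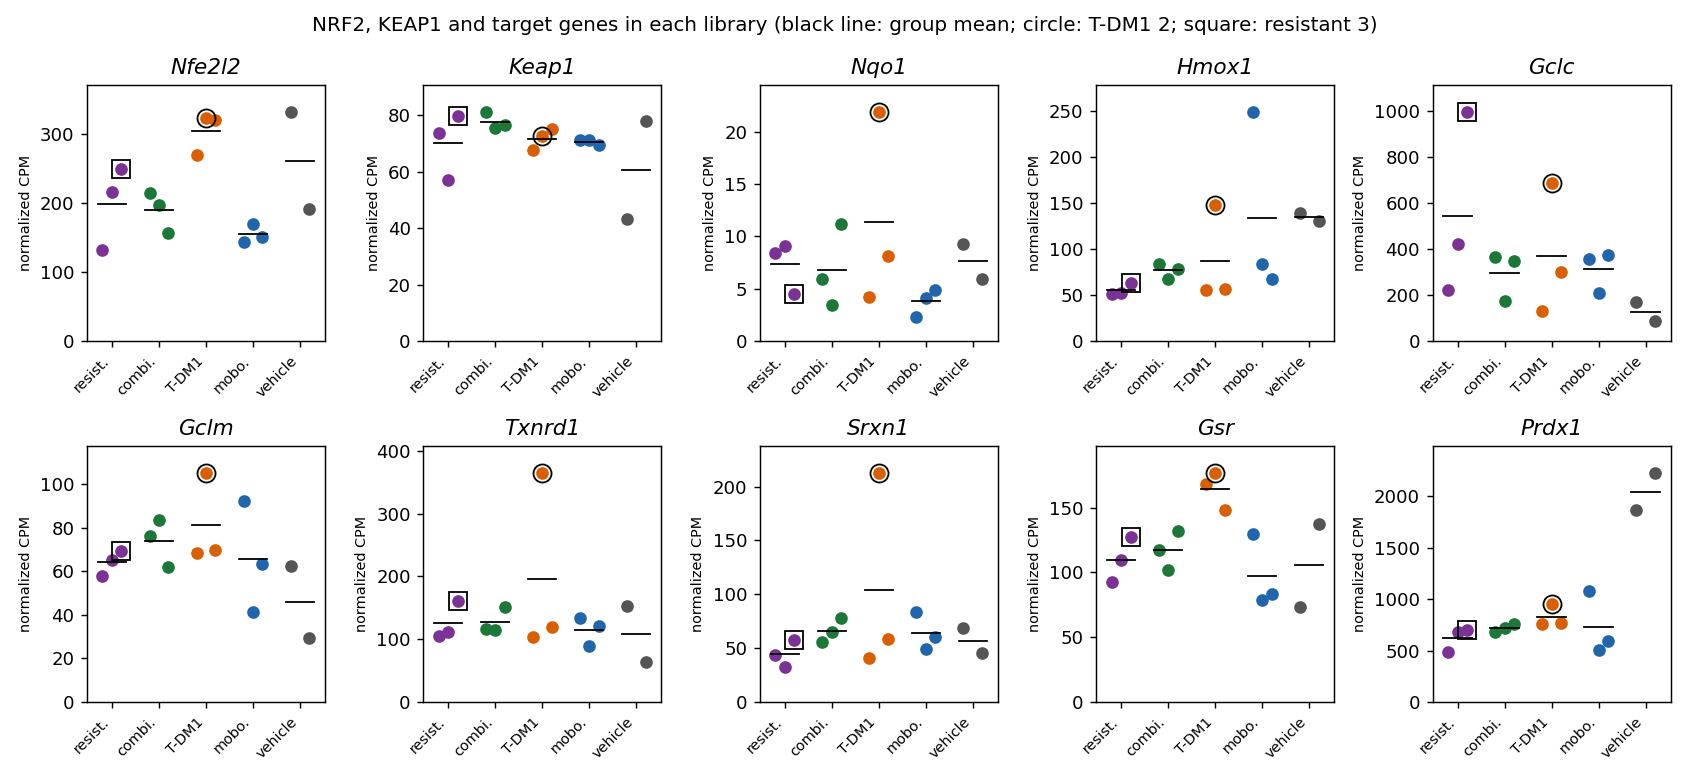
Normalized CPM of the 10 members in each of 14 libraries, by group, with black lines at group means; the circle marks T-DM1 2 and the square resistant 3. Prdx1 lies at 482 to 1076 CPM in the 12 other libraries and at 1864 and 2226 CPM in vehicle (the groups overlap in TPM), and T-DM1 2 is the highest of 14 libraries for Nqo1, Gclm, Txnrd1, Srxn1 and Gsr.

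Corrected for transcript length, the members spanned a wide range of levels. By the median over 14 libraries of the TPM that the authors deposited, Prdx1 was the most abundant at 817 TPM, followed by Gclc at 124 TPM, Nfe2l2 at 103 TPM and Gclm at 75.9 TPM. Hmox1 and Gsr were close to each other, at 58.3 and 56.4 TPM. Txnrd1 had a median of 46.5 TPM, Keap1 of 31.8 TPM and Srxn1 of 30.6 TPM, while Nqo1 was the lowest at 4.49 TPM. The spread between libraries was also uneven. Gclc spanned an 11.4-fold range of CPM over the 14 libraries and Nqo1 a 9.32-fold range, whereas Keap1 spanned 1.88-fold and Gsr 2.40-fold.

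Promoter sequence is shown because NRF2 acts through a known DNA element and several members were high together in 1 T-DM1 library. In RefSeq windows on GRCm38.p6, the 250 bases before each start were searched on both strands for the core of the antioxidant response element, TGACNNNGC, which can overlap the AP-1 motif TGANTCA. Windows were held for 7 of 10 members, 9 windows in all, and none for Hmox1, Gclc and Gsr. The core was found in 4 of these 9 windows, 1 each of Nfe2l2, Gclm, Prdx1 and Txnrd1, and in 10.2% of all 32851 windows. The windows of Keap1, Nqo1 and Srxn1 held none, which says only that these letters are not in that stretch. Below are 100 bases of 3 of them that overlapped 0 annotated exons: Gclm (chr3:122245377-122245476), Prdx1 (chr4:116685420-116685519) and Txnrd1 (chr10:82859068-82859167), all on the plus strand. Capitals mark the core, which here lies on the minus strand and begins 134, 133 and 92 bases before the start.
Gclm: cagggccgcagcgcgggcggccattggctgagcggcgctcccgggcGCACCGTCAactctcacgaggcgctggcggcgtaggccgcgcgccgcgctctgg
Prdx1: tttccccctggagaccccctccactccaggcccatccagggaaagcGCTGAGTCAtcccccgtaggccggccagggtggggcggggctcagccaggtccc
Txnrd1: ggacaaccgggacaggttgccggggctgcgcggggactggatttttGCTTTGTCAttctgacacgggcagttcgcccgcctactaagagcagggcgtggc
Read on the minus strand the cores are TGACGGTGC in Gclm, TGACTCAGC in Prdx1 and TGACAAAGC in Txnrd1. A match describes these letters only, and binding was not measured.

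Of the regulators, Nfe2l2 had its highest mean CPM in T-DM1 nodules and its lowest in mobocertinib nodules. Its mean TPM was lowest in vehicle, at 48.6, against 86.2 in mobocertinib nodules. It lies on chromosome 2 (75675513 to 75704641, mm10, minus strand). It had 132, 216 and 249 CPM in resistant nodules, 215, 197 and 157 CPM in combination nodules, 269, 323 and 319.7 CPM in T-DM1 nodules, 144, 170.0 and 151 CPM in mobocertinib nodules, and 331 and 192 CPM in vehicle. All T-DM1 libraries were above all resistant, combination and mobocertinib libraries, whereas the vehicle libraries lay on either side of the T-DM1 libraries, and vehicle 2 lay within the resistant and combination ranges. T-DM1 nodules averaged 304 ± 30.2 CPM, against 155 ± 13.7 CPM in mobocertinib nodules (SD, n = 3 each), a log2 fold change of 0.97 ± 0.27 (SE). That difference was not called by edgeR (adjusted p = 0.24, unadjusted p = 0.00332) and was called by DESeq2 (adjusted p = 0.0262). Resistant and combination nodules differed from T-DM1 nodules by -0.61 ± 0.27 and -0.68 ± 0.27, again without a call by edgeR (adjusted p = 0.361 and 0.94). Against vehicle the mobocertinib libraries were all lower, by -0.76 ± 0.30, without passing the threshold in edgeR (adjusted p = 0.066). DESeq2 and the fit corrected for transcript length called that difference (adjusted p = 0.0451 and 0.0485), while TPM turned it to 0.93, where the median of all genes moved by 1.11.

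Keap1 varied least. It lies on chromosome 9 (21229730 to 21239361, minus strand). Its levels were 73.8, 57.2 and 79.5 CPM in resistant, 80.9, 75.5 and 76.4 CPM in combination, 67.6, 72.5 and 75.0 CPM in T-DM1, and 71.1, 71.1 and 69.5 CPM in mobocertinib nodules. The vehicle libraries had 43.1 and 78.1 CPM, which spans all but 2 of the other 12 values. The log2 differences from vehicle ran from 0.21 ± 0.24 in resistant to 0.36 ± 0.24 in combination nodules, and were -0.56 to -0.40 when transcript length was corrected. In TPM, by contrast, both vehicle libraries, at 6.73 and 8.79, lay below all other libraries, at 25.0 to 39.6. The median of all genes also rose on the log2(TPM + 1) scale, by 1.11 to 1.27. Without vehicle 2, edgeR called Keap1 higher in resistant (0.81, adjusted p = 0.0418), combination (0.98, adjusted p = 0.0257) and T-DM1 nodules (0.85, adjusted p = 0.0499), and without vehicle 1 the 4 differences were -0.12 to 0.021. Of its exon bases 10.9% are shared with Gm16754 on the opposite strand, and no source used here states the strand setting, so a small part of its count is uncertain.

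Glutathione synthesis depends on Gclc and on its modifier subunit Gclm, and the product, once oxidized, is reduced again by Gsr with NADPH. Gclc lies on chromosome 9 (77754535 to 77794485, plus strand). It had 222, 421 and 995 CPM in resistant nodules, 366, 173 and 348 CPM in combination nodules, 131, 686 and 299.8 CPM in T-DM1 nodules, 355, 208 and 377 CPM in mobocertinib nodules, and 169 and 87.2 CPM in vehicle. Every resistant, combination and mobocertinib library was above both vehicle libraries, and 1 T-DM1 library lay between them. Resistant nodules averaged 546 ± 401 CPM (SD, n = 3), against 128 ± 58.0 CPM in vehicle (SD, n = 2), a log2 fold change of 2.09 ± 0.73 (edgeR adjusted p = 0.0371). The other log2 fold changes against vehicle were 1.21 ± 0.70 in combination, 1.54 ± 0.71 in T-DM1 and 1.29 ± 0.71 in mobocertinib nodules, none of them called.

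The call in resistant nodules did not hold without resistant 3 or with 1 vehicle library left. Without resistant 3, which had the highest Gclc of all 14 libraries, the log2 fold change was 1.32 (edgeR adjusted p = 0.128). Without vehicle 1 it was 2.68 and without vehicle 2 it was 1.79, both from edgeR. Corrected for transcript length it was 1.53 ± 0.78 (edgeR adjusted p = 0.147). In TPM resistant nodules averaged 236 ± 176 (SD, n = 3), against 15.2 ± 9.13 in vehicle (SD, n = 2). Every library outside vehicle, at 47.7 to 437 TPM, lay above both vehicle libraries, at 21.6 and 8.71 TPM. The median of all genes also rose on the log2(TPM + 1) scale, by 1.27 in resistant nodules.

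Gclm, on chromosome 3 (122245557 to 122270732, plus strand), had 57.9, 65.4 and 69.2 CPM in resistant, 76.2, 83.6 and 62.2 CPM in combination, 68.6, 105 and 70.0 CPM in T-DM1, and 92.5, 41.5 and 63.6 CPM in mobocertinib nodules, and 62.4 and 29.6 CPM in vehicle. All T-DM1 libraries were above both vehicle libraries, while the other groups overlapped vehicle. The log2 fold change of T-DM1 against vehicle was 0.82 ± 0.37 (edgeR adjusted p = 0.103). Without vehicle 1, edgeR called Gclm higher in T-DM1 and combination nodules (log2 1.49 and 1.35, adjusted p = 0.0249 and 0.0333), and corrected for length the first was 0.16. Of its exon bases 4.71% are shared with Gm17494 on the opposite strand and Gm6061. In T-DM1 1 Gclm had 65.7 TPM for 68.6 CPM, and Hmox1, with 1569 bases, 44.6 TPM for 55.3 CPM. The TPM thus rest on a shorter Gclm transcript than the 5589 bases used in the length correction, and its corrected values are uncertain.

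Gsr, on chromosome 8 (33652523 to 33698163, plus strand), had 92.5, 109.7 and 127 CPM in resistant nodules, 118, 102 and 132 CPM in combination nodules, 168, 177 and 148 CPM in T-DM1 nodules, 129.9, 78.6 and 83.2 CPM in mobocertinib nodules, and 73.6 and 137 CPM in vehicle. The 3 T-DM1 libraries lay above every library of every other group. T-DM1 against vehicle gave 0.64 ± 0.30 (edgeR adjusted p = 0.119), and without vehicle 2 it was 1.27 and called (edgeR adjusted p = 0.0338). T-DM1 nodules averaged 164 ± 14.7 CPM, against 97.3 ± 28.4 CPM in mobocertinib nodules (SD, n = 3 each), and the log2 fold change of 0.76 ± 0.27 was not called by edgeR (adjusted p = 0.349). Against resistant and combination nodules the differences were also uncalled by edgeR (resistant minus T-DM1 -0.58 ± 0.26, adjusted p = 0.377; combination minus T-DM1 -0.49 ± 0.26, adjusted p = 0.978). Nfe2l2 and Gsr were the 2 members higher without overlap in T-DM1 against mobocertinib.

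In the thioredoxin branch, Txnrd1 encodes the cytosolic reductase of thioredoxin, Srxn1 the sulfiredoxin that repairs overoxidized peroxiredoxins, and Prdx1 a peroxiredoxin. Prdx1, on chromosome 4 (116685544 to 116700822, plus strand), had 482, 681 and 703 CPM in resistant, 679, 718 and 758 CPM in combination, 755, 953 and 771 CPM in T-DM1, and 1076, 507 and 598 CPM in mobocertinib nodules, against 1864 and 2226 CPM in vehicle. Every library of the other groups was below both vehicle libraries, and the 4 other groups overlapped each other except that resistant libraries were all below T-DM1 libraries. By CPM Prdx1 fell by 1.72 ± 0.32 (resistant, edgeR adjusted p = 0.00123), 1.51 ± 0.32 (combination, 0.00356), 1.31 ± 0.32 (T-DM1, 0.00879) and 1.49 ± 0.32 (mobocertinib, 0.00409) on the log2 scale, whereas on the log2(TPM + 1) scale the differences were 0.23, 0.34, 0.46 and 0.18 and not called.

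In TPM Prdx1 had 649.6, 909.6 and 796 in resistant, 850.4, 798 and 868 in combination, 836, 997 and 908 in T-DM1, and 1022, 559 and 740.1 in mobocertinib nodules, and 738 and 596 in vehicle. These ranges overlap. The median of all genes rose on that scale by 1.11 to 1.27 in the 4 comparisons, and relative to it Prdx1 stood at -1.04, -0.84, -0.71 and -0.93 in resistant, combination, T-DM1 and mobocertinib nodules. With counts corrected for transcript length, Prdx1 was called lower by edgeR in all 4 (log2 -1.69, -1.34, -1.29 and -1.32). That correction took 2294 bases for Prdx1. In T-DM1 1 Prdx1 had 836 TPM for 755 CPM, and Hmox1, with 1569 bases, 44.6 TPM for 55.3 CPM. The TPM thus rest on a shorter Prdx1 transcript, and whether the calls hold at that length was not tested. Without vehicle 2 the call in T-DM1 nodules was lost (log2 -1.06, edgeR adjusted p = 0.0886), and without vehicle 1 it was kept (-1.40, adjusted p = 0.0206). Prdx1 has near-identical gene copies, Gm21399 and Gm7204, with matches of up to 597 bases. They held 97 to 222 and 12 to 70 counts a library against at least 13247 for Prdx1, so reads shared with them leave its level slightly uncertain.

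**Figure D2:**
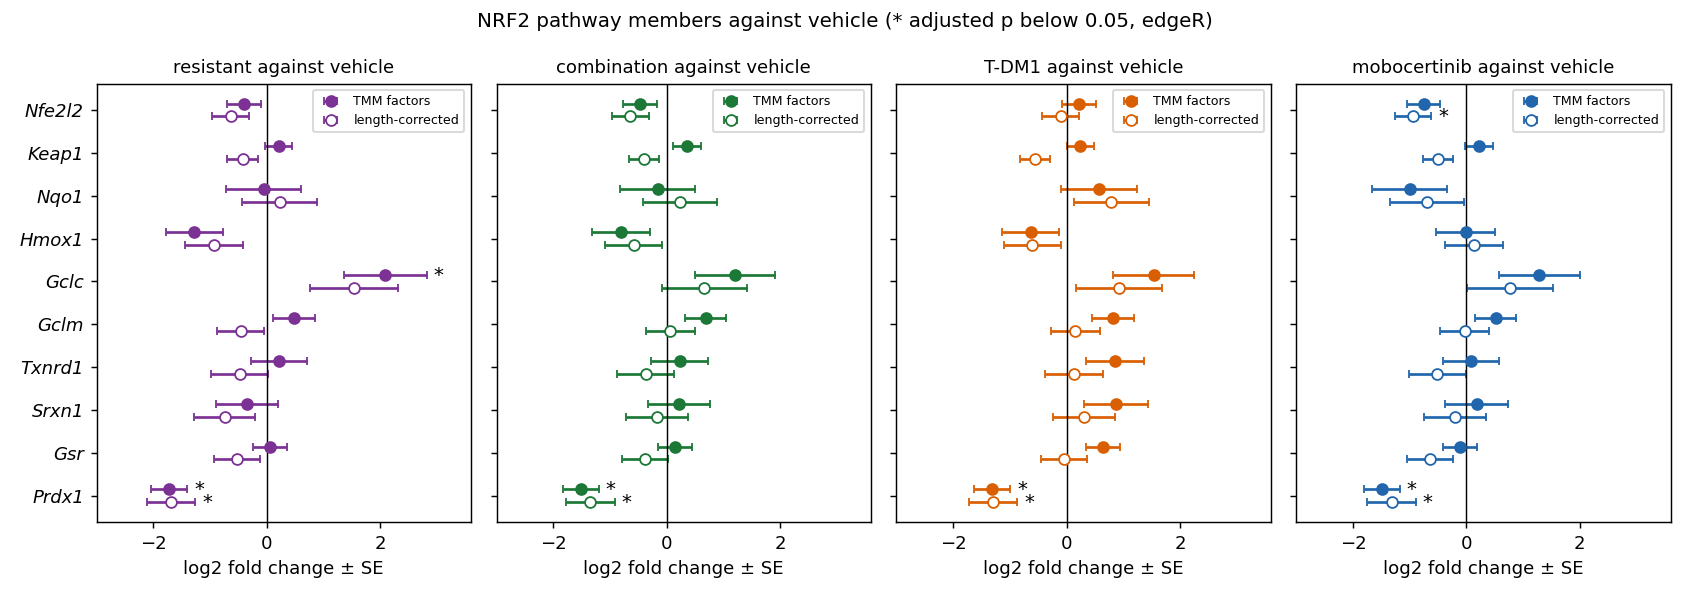
Log2 fold changes ± SE of the 10 members in each group against vehicle (n = 3 against 2), from counts with TMM factors (filled) and corrected for transcript length and GC content (open); asterisks mark an edgeR adjusted p below 0.05. Prdx1 is below 0 and called in all 4 panels in both fits, but above 0 and uncalled in TPM. Gclc in resistant nodules is called only in the first fit. For Prdx1 and Gclm the corrected fit used longer transcripts than their TPM imply.

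Txnrd1, on chromosome 10 (82833951 to 82897712, plus strand), had 105, 111 and 161 CPM in resistant, 116, 114 and 151 CPM in combination, 104, 364 and 119 CPM in T-DM1, and 134, 89.1 and 121 CPM in mobocertinib nodules, and 153 and 64.0 CPM in vehicle. One T-DM1 library stood far above the other 13 and all groups overlapped vehicle. Srxn1, on chromosome 2 (152105516 to 152111376, plus strand), had 43.5, 32.8 and 58.0 CPM in resistant, 55.9, 64.7 and 78.3 CPM in combination, 40.5, 213 and 58.2 CPM in T-DM1, and 83.2, 49.4 and 60.6 CPM in mobocertinib nodules, and 68.3 and 45.4 CPM in vehicle. The same T-DM1 library was the high one, and no group was separate from vehicle. Their log2 fold changes against vehicle lay between -0.35 ± 0.55 (Srxn1, resistant) and 0.87 ± 0.56 (Srxn1, T-DM1), and none was called.

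Nqo1, a quinone reductase often used as a readout of NRF2, was low throughout, with 47 to 705 counts a library. It lies on chromosome 8 (107388225 to 107403206, minus strand). It had 8.40, 9.13 and 4.48 CPM in resistant, 5.93, 3.43 and 11.2 CPM in combination, 4.20, 21.8 and 8.09 CPM in T-DM1, and 2.34, 4.17 and 4.87 CPM in mobocertinib nodules, and 9.30 and 5.94 CPM in vehicle. All mobocertinib libraries were below both vehicle libraries, and every other group overlapped vehicle. The log2 difference of mobocertinib from vehicle was -1.0 ± 0.66 (edgeR adjusted p = 0.253), and that of T-DM1 from mobocertinib was 1.58 ± 0.60 (edgeR adjusted p = 0.408), or 0.69 ± 0.56 without T-DM1 2.

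Hmox1, heme oxygenase, breaks down heme and is strongly expressed by macrophages. It lies on chromosome 8 (75093621 to 75100589, plus strand). It had 51.1, 52.5 and 63.7 CPM in resistant nodules, 84.2, 68.1 and 78.9 CPM in combination nodules, 55.3, 148 and 57.0 CPM in T-DM1 nodules, 249, 83.7 and 68.0 CPM in mobocertinib nodules, and 139.6 and 130.2 CPM in vehicle. All resistant libraries lay below all combination, mobocertinib and vehicle libraries. Resistant nodules averaged 55.7 ± 6.90 CPM (SD, n = 3), against 135 ± 6.63 CPM in vehicle (SD, n = 2), a log2 difference of -1.28 ± 0.51 that edgeR did not call (adjusted p = 0.0597) and DESeq2 did (adjusted p = 0.0439). Resistant against mobocertinib gave -1.26 ± 0.47 (edgeR adjusted p = 0.622), with 1 mobocertinib library at 249 CPM, and -0.44 ± 0.37 without that library. TPM turned the resistant difference from vehicle to 0.52, against a rise of 1.27 in the median of all genes.

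Markers of other cells moved with Hmox1 in part. The sum of 7 neutrophil markers was 42.0, 79.9 and 14.6 CPM in resistant, 68.5, 238 and 218 CPM in combination, 80.4, 99.0 and 94.3 CPM in T-DM1, and 283, 48.5 and 46.5 CPM in mobocertinib nodules, and 459 and 576 CPM in vehicle. Mobocertinib 1 and both vehicle libraries had the highest neutrophil sums of 14, and were 3 of the 4 libraries with the most Hmox1, the other being T-DM1 2. Resistant 2 had a macrophage sum of 14511 CPM with Hmox1 at 52.5 CPM, and mobocertinib 1, the library with the most Hmox1, had a sum of 3209 CPM, under the 9565 and 8706 CPM of the other mobocertinib libraries. Both vehicle libraries, at 23909 and 24064 CPM, had the highest sums. Alveolar type 2 markers summed to 20225 CPM in mobocertinib 1, under the 33955 and 42107 CPM of the other mobocertinib libraries. Lyz2 was by far the macrophage marker of highest mean level, with C1qa next, so these sums mostly follow Lyz2. Against vehicle 1, 2, 2 and 2 of the 10 macrophage markers were called lower in resistant, combination, T-DM1 and mobocertinib nodules. Those called higher were 1, 0, 0 and 1. Of all genes 19%, 17.4%, 14.9% and 16.1% were called lower and 22%, 17.6%, 16.7% and 16.8% higher. The part of these cells in Hmox1 was not tested.

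**Figure D3:**
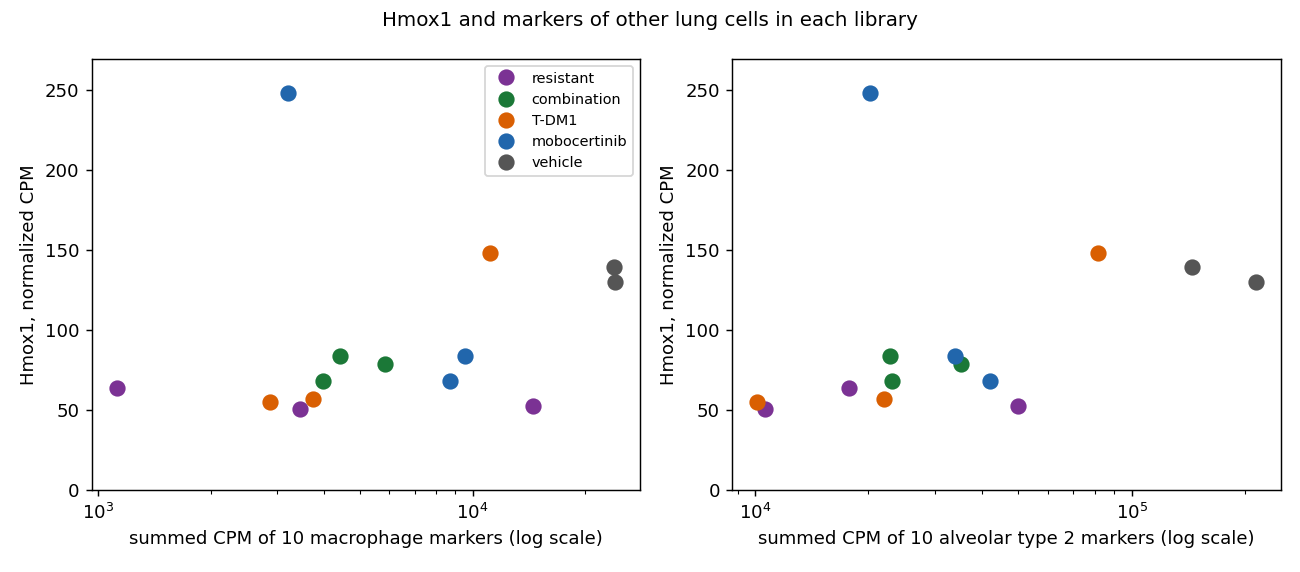
Hmox1 (normalized CPM) against the summed CPM of 10 macrophage markers (left) and 10 alveolar type 2 markers (right) in each of 14 libraries, on log x axes, colored by group. Vehicle lies to the right in both panels at 139.6 and 130.2 CPM. Mobocertinib 1, at 249 CPM, lies left of both other mobocertinib libraries. Among the macrophage markers Lyz2 has by far the highest mean level.

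Differences between T-DM1 and the other drug or resistant groups in Nqo1, Txnrd1 and Srxn1 changed with 1 T-DM1 library. Nqo1, Txnrd1 and Srxn1 had log2 differences of -0.73 ± 0.59, -0.62 ± 0.45 and -0.65 ± 0.49 in combination against T-DM1, and of 0.15, 0.19 and 0.42 once T-DM1 2 was left out. In resistant against T-DM1 they had -0.63 ± 0.59, -0.64 ± 0.45 and -1.22 ± 0.50, and 0.26, 0.18 and -0.14 without it. In T-DM1 against mobocertinib they had 1.58 ± 0.60, 0.77 ± 0.45 and 0.69 ± 0.49, and 0.69, -0.038 and -0.38 without it. None of these was called by edgeR with or without that library. Without T-DM1 2, Nfe2l2 and Gsr had -0.57 and -0.53 in resistant against T-DM1, -0.64 and -0.43 in combination against T-DM1, and 0.93 and 0.70 in T-DM1 against mobocertinib, close to the values with it. In resistant against T-DM1, 3 members were lower without overlap (Nfe2l2, Gsr and Prdx1), Prdx1 by -0.41 ± 0.29, and in resistant against mobocertinib and against combination the 1 such member was Hmox1.

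**Figure D4:**
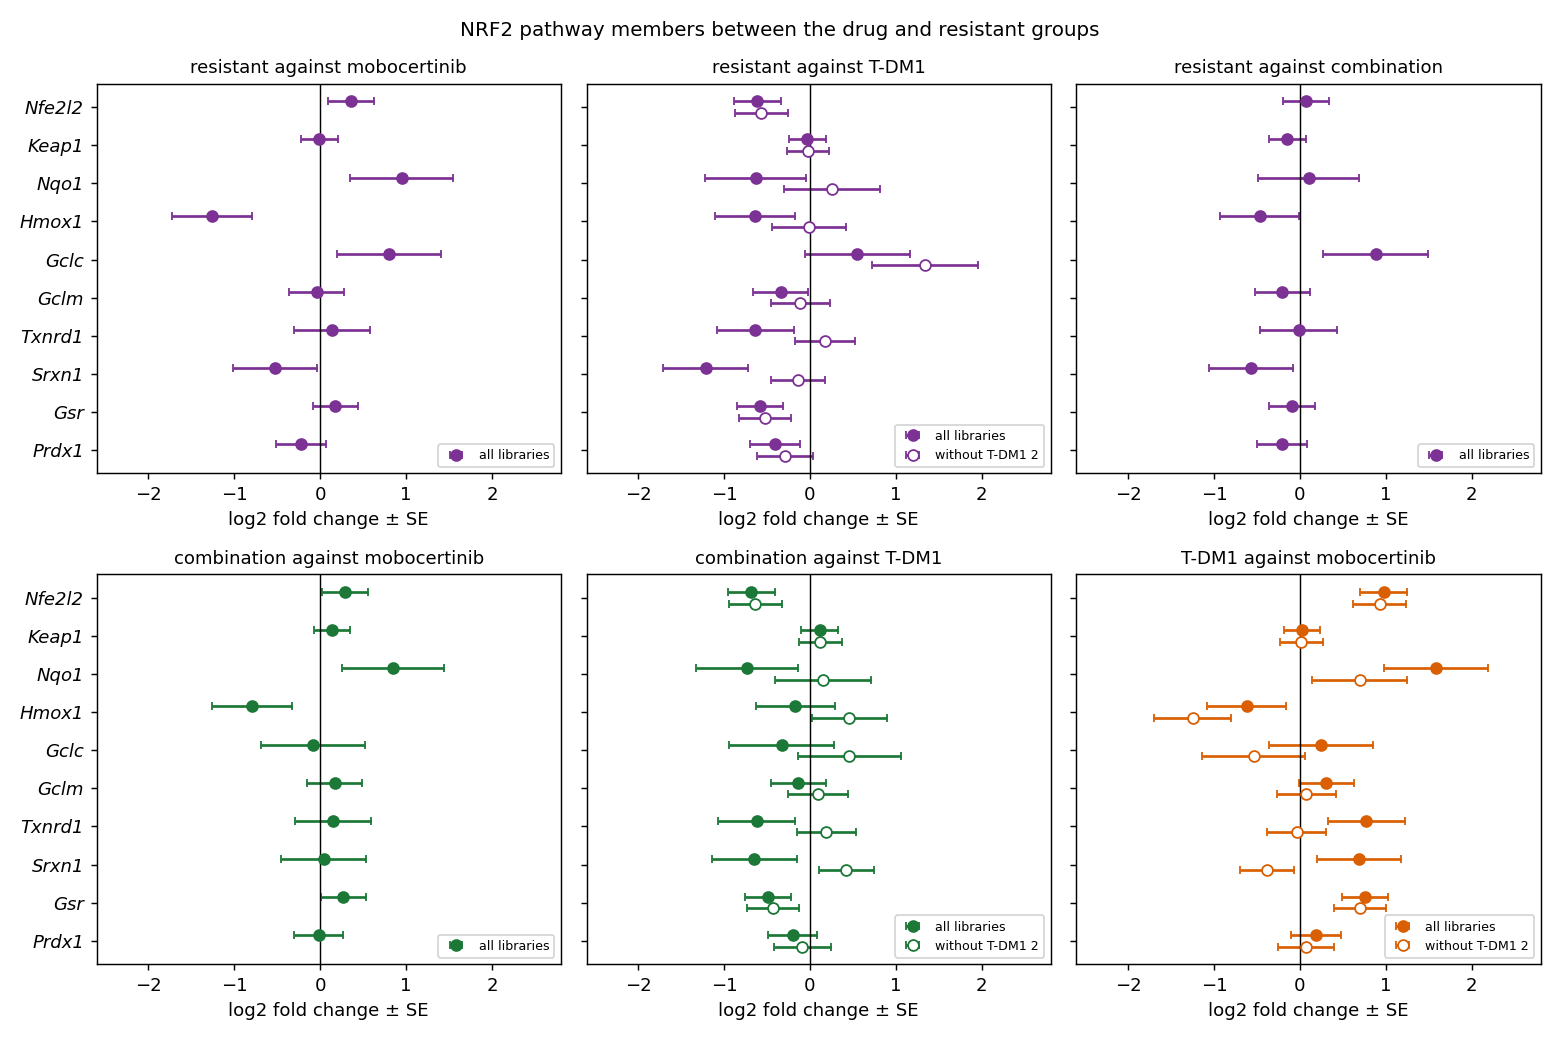
Log2 fold changes ± SE of the 10 members in the 6 comparisons between the drug and resistant groups (n = 3 each), with all libraries (filled) and, where T-DM1 is compared, without T-DM1 2 (open). Intervals are wide for Nqo1, Gclc, Hmox1, Txnrd1 and Srxn1, 0 members are called, and several of the T-DM1 differences cross 0 when that library is left out.

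The library T-DM1 2, singled out after its values were seen, had high levels of several NRF2 target RNAs. It had the highest level of 14 libraries for 5 of 10 members (Nqo1, Gclm, Txnrd1, Srxn1 and Gsr), where it was the highest for 4.98% of all genes. In 5 members (Nqo1, Hmox1, Gclc, Txnrd1 and Srxn1) it was over 2 times each other T-DM1 library, as were 6.71% of all genes. Srxn1 was 4.30 times the mean of the other T-DM1 libraries, Nqo1 3.55 times, Txnrd1 3.27 times, Gclc 3.18 times and Hmox1 2.64 times. All 8 targets were above their own means over the libraries, against 0 to 7 in the other 13 libraries. Nfe2l2, at 323 CPM, and Keap1, at 72.5 CPM, were close to their levels in T-DM1 3 (319.7 and 75.0 CPM).

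Beyond the members, 17 of 74 further pathway genes were highest in T-DM1 2, beside 4.98% of all genes. Of the 74, 18 were over 2 times each other T-DM1 library, beside 6.71% of all genes. Cbr3, a carbonyl reductase, had 350.2 CPM in T-DM1 2, against 32.8 and 39.2 CPM in the other T-DM1 libraries and 19.9 to 171 CPM elsewhere. Slc7a11, the cystine importer that feeds glutathione synthesis, had 109 CPM, against 15.5 and 23.7 CPM in the other T-DM1 libraries and at most 19.9 CPM in the other groups. Aox1, an aldehyde oxidase, had 141 CPM against 24.3 and 28.4 CPM, and Blvrb, a biliverdin reductase, 195 CPM against 39.8 and 39.1 CPM. Sqstm1, which encodes the autophagy receptor p62 that binds KEAP1, had 1712 CPM against 623 and 757 CPM. Other genes of the same lists were low there. Aldh3a1, an aldehyde dehydrogenase, had 19.4 CPM in T-DM1 2 against 129 and 87.3 CPM in the other T-DM1 libraries, Aldh1a1 102 CPM against 470.1 and 377 CPM, Cyp2a5 40.1 CPM against 246 and 181 CPM, and the glutathione transferase Gsta4 314 CPM against 968 and 985 CPM. Markers moved with this library too. Its macrophage sum was 11120 CPM, against 2880 and 3738 CPM in the other T-DM1 libraries, its alveolar type 2 sum 81185 CPM against 10157 and 21956 CPM, and its club cell sum 7400 CPM against 20730 and 25171 CPM. The macrophage sum mostly follows Lyz2. The other sums also lean on few genes. Sftpc had the highest mean level of the alveolar type 2 markers (35456 CPM, next Sftpb at 7305 CPM). Scgb1a1 had that of the club cell markers (10518 CPM, next Cyp2f2 at 5160 CPM). The part of these cells in the target levels of T-DM1 2 was not tested.

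**Figure D5:**
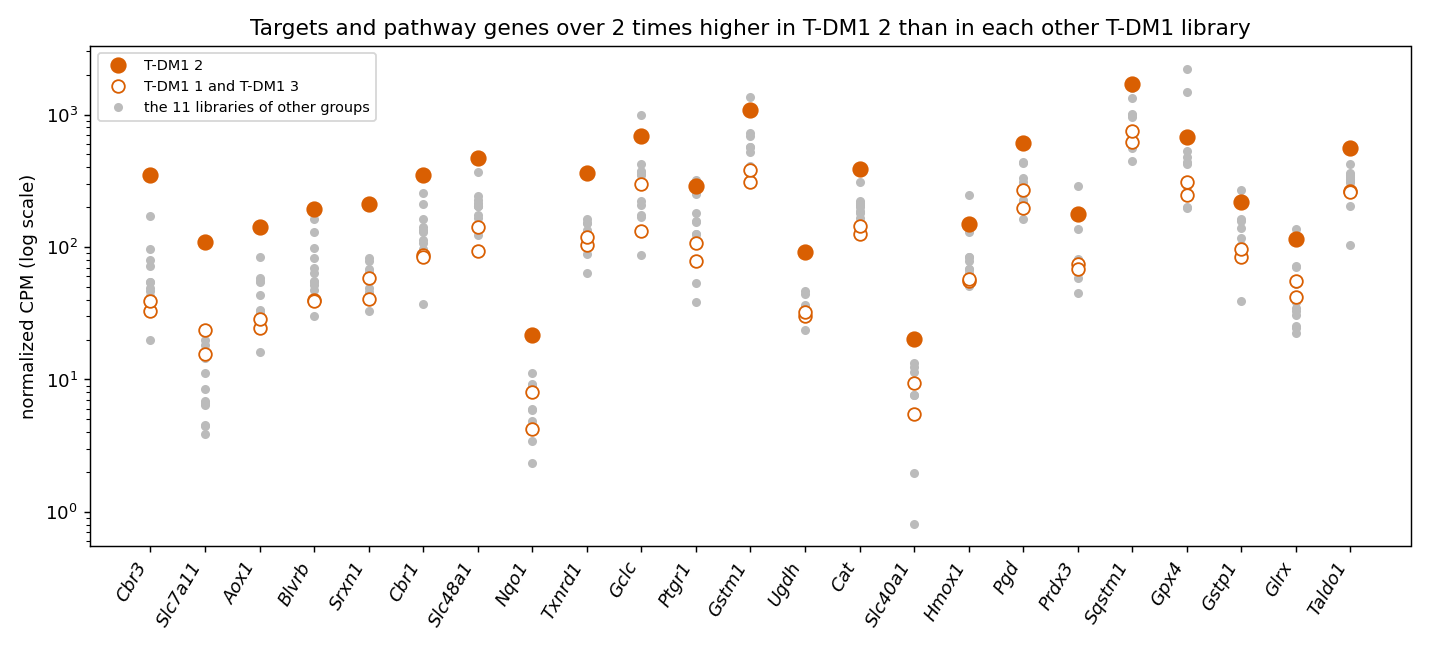
Normalized CPM (log scale) of the targets and pathway genes that were over 2 times higher in T-DM1 2 (filled) than in each other T-DM1 library (open), with the 11 libraries of other groups in grey. Genes run in order of the fold between T-DM1 2 and the mean of the other T-DM1 libraries, from Cbr3 at 9.73 times to Taldo1 at 2.13 times.

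Resistant 3 was also singled out after its values were seen. Of the 10 members only Gclc, at 995 CPM, was highest of 14 libraries there, as were 6 of 74 pathway genes. Both counts are near the share of all genes, 8.58%. Over 2 times each other resistant library were 10 of the 74, beside 5.49% of all genes. Among the pathway genes Abcc4 and Abcc3, transporters that export conjugates, had 309.6 and 440.1 CPM in resistant 3, against 28.4 and 59.8 CPM and 87.7 and 70.8 CPM in the other resistant libraries. G6pdx, which supplies NADPH, had 272 CPM, against 97.8 and 100.1 CPM. Its epithelial sum was 4833 CPM, against 1759 and 1682 CPM in the other resistant libraries, and its macrophage sum of 1124 CPM and neutrophil sum of 14.6 CPM were the lowest of 14. Their part in its Gclc, Abcc3 and Abcc4 levels was not tested. Mobocertinib 1 had the highest Hmox1, with Cyp2a5, a cytochrome of detoxification, at 3795 CPM, against 204 and 280.2 CPM in the other mobocertinib libraries.

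The wider pathway was read from 6 lists of 74 genes, of which 73 were tested. In resistant, combination, T-DM1 and mobocertinib nodules 34, 31, 28 and 28 of the 73 were called against vehicle by edgeR, beside 41%, 35%, 31.7% and 32.9% of all genes. Most lists held genes of both directions. All group differences below are against vehicle, whose libraries stood apart in transcript length.

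Among 12 partners and regulators of NRF2, 7, 5, 5 and 4 were called higher and 1 lower in resistant, combination, T-DM1 and mobocertinib nodules, and the list's median log2 fold change was 1.0, 0.84, 0.82 and 0.70. Of all genes 22%, 17.6%, 16.7% and 16.8% were called higher and 19%, 17.4%, 14.9% and 16.1% lower. Corrected for length 1, 0, 0 and 0 of the list were called higher, beside 9.57%, 7.31%, 6.05% and 6.96% of all genes. Gsk3b, a kinase that marks NRF2 for degradation, averaged 84.3 CPM in resistant nodules, against 16.7 CPM in vehicle (log2 2.34 ± 0.32, edgeR adjusted p = 0.000199), and was not called after the correction. Nfe2l1, which encodes the related factor NRF1, averaged 320.0 CPM against 120.6 CPM (log2 1.41 ± 0.25). Rbx1, the RING subunit of the ligase that ubiquitinates NRF2, was the 1 called lower. It averaged 65.6, 83.1, 89.8 and 93.0 CPM in resistant, combination, T-DM1 and mobocertinib nodules, against 285 CPM in vehicle, a log2 difference of -2.12 to -1.62, was still called lower after the length correction, and was not called in TPM.

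In the glutathione list 3, 2, 3 and 2 of 17 tested genes were called higher and 1 lower in resistant, combination, T-DM1 and mobocertinib nodules. These counts were near or under the shares of all genes, 22%, 17.6%, 16.7% and 16.8% higher and 19%, 17.4%, 14.9% and 16.1% lower. Abcc1, an exporter of glutathione conjugates, gave the largest difference among the pathway genes named here. It had 62.2, 33.8 and 117 CPM in resistant, 85.7, 62.5 and 85.1 CPM in combination, 57.3, 46.4 and 63.0 CPM in T-DM1, and 78.5, 65.2 and 56.6 CPM in mobocertinib nodules, against 5.22 and 2.23 CPM in vehicle. No library overlapped vehicle. The log2 fold changes were 4.24 ± 0.54, 4.37 ± 0.54, 3.89 ± 0.53 and 4.15 ± 0.53 (edgeR adjusted p = 0.000121, 0.00021, 0.000368 and 0.00033), and Abcc1 was also called higher after length correction, in TPM, without vehicle 1 and without vehicle 2. Mgst3, a microsomal glutathione transferase, was lower, at 49.5 CPM in resistant nodules against 211 CPM in vehicle (log2 -2.09 ± 0.34, edgeR adjusted p = 0.000542), and was not called in TPM. Of the 7 genes of NADPH supply, G6pdx was called higher and Idh1 and Pgls lower in all 4 groups, while after length correction G6pdx was called in none, and in TPM Idh1 was called higher in resistant and combination nodules.

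Among 12 detoxification enzymes, 3, 3, 3 and 4 were called higher and 1, 1, 1 and 0 lower in resistant, combination, T-DM1 and mobocertinib nodules. Of all genes 22%, 17.6%, 16.7% and 16.8% were called higher and 19%, 17.4%, 14.9% and 16.1% lower. Aldh1a1, Aldh3a1 and Ephx1 were called higher in all 4 groups, also after length correction and in TPM. Esd was called lower in resistant, combination and T-DM1 nodules (log2 -1.55, -1.07 and -1.13, edgeR adjusted p = 0.00754, 0.049 and 0.0429). Aldh1a1, a retinal and aldehyde dehydrogenase, averaged 386 CPM in resistant, 371 CPM in combination, 316 CPM in T-DM1 and 464 CPM in mobocertinib nodules, against 64.7 CPM in vehicle (log2 2.29 to 2.84). With vehicle 1 or vehicle 2 left out, 0 to 2 genes of the list were called higher, beside 7.54% to 21.5% of all genes. The list's median was -0.17, -0.21, 0.32 and -0.28 in resistant, combination, T-DM1 and mobocertinib nodules. That is opposite in sign to Aldh1a1, Aldh3a1 and Ephx1 in all groups but T-DM1. Of 8 genes for heme and iron, 5, 4, 4 and 2 were called lower and 1, 1, 0 and 1 higher (Fech, ferrochelatase). Of all genes 19%, 17.4%, 14.9% and 16.1% were called lower and 22%, 17.6%, 16.7% and 16.8% higher. Fth1, the ferritin heavy chain, averaged 3093, 4007, 2995 and 5322 CPM in resistant, combination, T-DM1 and mobocertinib nodules, against 18210 CPM in vehicle, and Blvra, a biliverdin reductase, 23.7, 30.5, 32.3 and 34.4 CPM against 117 CPM. In TPM, Fth1 was called lower only in T-DM1 nodules and Blvra in none.

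The other thioredoxin and peroxide enzymes, a long list, had the most genes called lower by number. These were 8, 8, 6 and 8 of 17 in resistant, combination, T-DM1 and mobocertinib nodules, beside 19%, 17.4%, 14.9% and 16.1% of all genes. By share the heme and iron list had more in resistant, combination and T-DM1 nodules (5, 4 and 4 of 8) and fewer in mobocertinib nodules (2 of 8). The medians of the thioredoxin and peroxide list were -0.87, -0.73, -0.73 and -0.76. In TPM 8 of 17 were called higher in each group, beside 59.7%, 56.9%, 57.5% and 55% of all genes. Those called lower in TPM were 5, 2, 4 and 2, beside 4.81%, 3.39%, 3.53% and 3.08%. Txn1, thioredoxin itself, had 190.3, 238 and 203 CPM in resistant, 223, 259 and 295 CPM in combination, 244, 380.4 and 250.2 CPM in T-DM1, and 341, 311 and 263 CPM in mobocertinib nodules, against 1125 and 2005 CPM in vehicle. Its log2 fold changes were -2.89 ± 0.30, -2.6 ± 0.30, -2.42 ± 0.30 and -2.36 ± 0.30. Prdx4, the peroxiredoxin of the endoplasmic reticulum, had 34.1 to 77.9 CPM in the other groups, against 451 and 394 CPM in vehicle (log2 -3.12 to -2.70). Txn1 and Prdx4 were called lower in all 4 comparisons also after length correction and in TPM, whereas Prdx1 was not called in TPM. Sod3, the extracellular superoxide dismutase, was called higher in all 4 groups and Prdx6 in combination and mobocertinib nodules; after length correction Sod3 was called higher in resistant and Prdx6 in mobocertinib nodules only.

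Between the drug and resistant groups edgeR called 0 of the 73 pathway genes in each of the 6 comparisons. At an unadjusted p below 0.05 there were 13 in resistant against mobocertinib, 7 in resistant against T-DM1, 8 in resistant against combination, 0 in combination against mobocertinib, 2 in combination against T-DM1 and 6 in T-DM1 against mobocertinib, where all genes gave 7.77%, 13.1%, 8.3%, 1.46%, 5.1% and 9.56%. DESeq2 called Gpx1 lower in resistant against mobocertinib, Slc7a11 lower in combination against T-DM1, and in T-DM1 against mobocertinib Slc7a11 higher and Prdx6 lower. Limma-voom called none of the 73.

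The genes that followed the members most closely were found over the 12 libraries outside vehicle, by Pearson's r of log2 CPM, as a description. For the mean of the 8 targets these were Sardh (r = 0.926), Dap (0.887), Txn2 (0.876), Ugdh (0.875) and Mpi (0.86). Without T-DM1 2 their r was 0.74, 0.796, 0.636, 0.509 and 0.748. Sardh, a sarcosine dehydrogenase, had 34.4 CPM in T-DM1 2 and 6.86 to 11.8 CPM in the other 11. For Hmox1 alone they were Hcfc1r1 (0.903), Ch25h (0.883), Polr2l (0.873), Nop10 (0.869) and Ndufs3 (0.868), and for Nqo1 alone Col4a1 (0.956), Col4a2 (0.931), Slc2a10 (0.903), Piezo2 (0.896) and Pgm5 (0.894). The points share their libraries, depth and cell mixture.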

How the data were processed

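RNA sequencing of 14 libraries was read from 2 tables. The first holds whole-number counts per gene symbol, as the authors deposited them, and the second TPM values that the authors scaled for transcript length and library total. The submitters' processing notes list STAR, RSEM and mm10, with no roles. Versions, annotation and strand setting: not given in the sources used here. No reads were re-aligned.

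Counts were tested in edgeR 4.0.16 (R 4.3.3) with TMM factors, a group-wise filterByExpr filter and its quasi-likelihood F-test (robust), in 1 fit of all libraries, with Benjamini-Hochberg adjustment over 17933 genes and a threshold of 0.05. Each SE was taken as |log2 fold change|/√F. CPM are TMM-normalized. Alternatives used DESeq2 1.42.0, limma 3.58.1, other scalings, the log2(TPM + 1) scale and offsets from smooth fits on transcript length and GC content of GENCODE M21. The fits were tested on counts simulated with the means and spread of these data. Only 50 of 17521 genes were changed at each fold. Of 2-fold changes, 2% were called in T-DM1 against vehicle and 8% in T-DM1 against mobocertinib. Larger changes were called more often. In the data 31.7% of genes were called in T-DM1 against vehicle, which makes the adjusted threshold easier to pass than in the simulation. The 2% thus does not give the rate of calls in that comparison, where Mafk was called at a log2 fold change of 0.88. An uncalled difference of about 2-fold is still not shown to be absent. All 13 replicate pairs differed and 0 were identical. Replicate numbers were given in accession order as names.

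The members, gene lists and marker lists were chosen with earlier results of these data known. Named were all members, up to 3 called genes in each direction of each pathway list by smallest p, the 5 genes most like the 8 targets, Hmox1 and Nqo1, and up to 2 genes of highest mean per marker list; genes named for 1 library were chosen after their values were seen. All members but Nqo1, with 47 to 705 counts, had at least 398 counts in every library.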

Additional observations from a re-analysis of the deposited data

How the results depend on the processing

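Counts of members called changed with the processing in the comparisons with vehicle. In mobocertinib nodules 1 member was called, and 2 with DESeq2 (36.3% of all genes), length correction (24.3%) or the compared groups alone (28.6%) and 8 in TPM (58.1%). In T-DM1 nodules 1 was called, and 8 in TPM (61.1%). In combination nodules 1 was called, and 2 with the compared groups alone (38.9%) and 7 in TPM (60.3%). In resistant nodules 2 were called, and 1 without the filter (22%) or with length correction (30.5%) and 7 in TPM (64.5%). T-DM1 against mobocertinib had 0 called, and 1 with DESeq2 (2.26%). With each library left out in turn the counts were 1 to 1, 1 to 2, 1 to 2 and 1 to 2 in mobocertinib, T-DM1, combination and resistant nodules, and 0 to 0 in the 6 other comparisons. The cause was not tested, apart from the length correction. Of 1320 member values recomputed, 29 turned a difference over 1 SE from 0, 40 of the others gained a call, 7 lost one and 1244 stayed on their side of the threshold. The last and the gained calls include 108 sign changes of differences within 1 SE of 0, which are not listed.

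In TPM the sign changed against vehicle for Nfe2l2 (1.37 resistant, 1.30 combination, 0.93 mobocertinib), Hmox1 (0.52 resistant, 0.94 combination, 0.87 T-DM1), Prdx1 (0.23 resistant, 0.34 combination, 0.46 T-DM1, 0.18 mobocertinib) and Nqo1 (0.47 mobocertinib), where all genes rose by a median of 1.27, 1.18, 1.17 and 1.11 in resistant, combination, T-DM1 and mobocertinib nodules. Length correction turned Gclm (-0.46 resistant, -0.034 mobocertinib), Keap1 (-0.40 combination, -0.56 T-DM1) and Gsr (-0.047 T-DM1). For Gclm and Prdx1 this correction used longer transcripts than their TPM imply, so their corrected values are uncertain. Leaving out 1 library at a time gave these ranges where a difference over 1 SE from 0 changed sign. Without vehicle 1 the upper end was reached by Nfe2l2 in resistant (-0.64 to 0.081) and combination nodules (-0.67 to 0.012), and the lower end by Keap1 in T-DM1 nodules (-0.094 to 0.85). Without T-DM1 2 the sign turned for Srxn1 in T-DM1 against vehicle (-0.20 to 1.32), T-DM1 against mobocertinib (-0.38 to 1.06) and combination against T-DM1 (-1.03 to 0.42). It turned likewise for Txnrd1 in T-DM1 against mobocertinib (-0.038 to 1.07), resistant against T-DM1 (-0.94 to 0.18) and combination against T-DM1 (-0.92 to 0.19), and for Nqo1 in resistant (-1.04 to 0.26) and combination against T-DM1 (-1.31 to 0.15). Without mobocertinib 1, Hmox1 turned in combination against mobocertinib (-1.12 to 0.023) and T-DM1 against mobocertinib (-1.25 to 0.20). Where 1 vehicle library was left, it was assumed to vary like the other groups.

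No paired analysis was possible because replicate numbers follow accession order and the labels pair no samples. With 2 vehicle libraries that also differ from the rest in transcript length and lung cell markers, the drug and these properties cannot be told apart.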

Other observations

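Mobocertinib 1, singled out after its values were seen, had the highest level of 14 libraries in 9 of 74 pathway genes, 5 of them in the glutathione list, beside 3.37% of all genes. The glutathione transferase Gstm1 had 1363 CPM there, against 396 and 518 CPM in the other mobocertinib libraries, Gstm2 437 CPM against 68.5 and 151 CPM, and Gsta3 508 CPM against 150.1 and 197 CPM. Its club cell marker sum, 46785 CPM, was also the highest of the mobocertinib libraries (13343 and 30234 CPM in the others), and the part of these cells was not tested.

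Col4a1 and Col4a2, basement membrane collagens, had the closest likeness to Nqo1, and kept an r of 0.92 and 0.876 over the 11 libraries left without T-DM1 2. Col4a1 had 860.4 CPM in T-DM1 2 and 224 to 540.1 CPM in the other 11 libraries outside vehicle.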
